A study of Mus musculus with 5 samples.

Results

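Columnar tumor cells are the gland-forming epithelial cells of colon tumors, as opposed to the stratified, squamous cells that AOM/DSS tumors also hold. Columnar cells were compared between the libraries labelled day 1 and day 3 of tumors given chemotherapy, in 497 cells of the library day 1 replicate 1 and 1042 cells of the library day 3. These 1539 cells were part of 2167 cells kept in both libraries and of 7396 cells kept in the 4 treated libraries of the series. They were chosen by the summed counts of 11 genes, with 1 count per unique molecular identifier (UMI). A columnar cell had at least 5 UMIs of Krt8, Krt18 and Lgals4 together, more of these than of the squamous keratins Krt5 and Krt14, and fewer than 3 UMIs of the immune, endothelial and fibroblast genes Ptprc, Tyrobp, Csf3r, Pecam1, Cdh5 and Dcn.

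All 4 libraries came from AOM/DSS colon tumors of mice labelled as genotype WT, dissociated as usual and given 5FU plus Irinotecan. AOM, azoxymethane, is a carcinogen, and DSS, dextran sodium sulfate, injures the colon lining and causes colitis. 5FU blocks thymidylate synthase, and Irinotecan traps topoisomerase I on DNA. Day 1 has replicates 1 and 2, and days 3 and 6 have 1 library each, all by inDrop, a droplet method that gives each cell a barcode. No untreated tumor entered the comparison. Digested tumors were held on a filter for their crypts before these were made into single cells, and what passed the filter was discarded, so shares of cell types are not those of the whole tumor. The labels give no number of animals per library, and the study counts the days in more than one way, from treatment or after it.

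The libraries of day 1 replicate 1 and day 3 have the single index structure and those of day 1 replicate 2 and day 6 the dual index structure. Each structure was read on its own sequencer, so that both cannot be told apart. The comparison therefore stayed within the single index pair, with 1 library a side, which allows no test. Every difference below is an effect size between libraries, and its cause cannot be told apart from a difference between animals or tumors. The dual index pair, day 6 minus day 1 replicate 2, shares no library with it and is given beside it. The difference between both day 1 libraries shows how far libraries of the same day lay apart, across structure and sequencer.

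Counts were summed over the columnar cells of a library and divided by their total to give CPM, counts in each 1000000 UMIs. The single index sums held 3698418 UMIs on day 1 and 5073410 on day 3, and the dual index sums 12197092 on day 1 and 9870225 on day 6. The median columnar cell held 3318 UMIs in day 1 replicate 1 and 3194 in day 3. Changes are log2 differences of CPM with 5 CPM added, over 7303 genes with a mean of at least 20 CPM in the single index pair. "Past 2-fold" means a log2 difference of at least 1 either way on that scale. Intervals of CPM are exact 95% Poisson intervals and cover counting error only.

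The cells had the markers of their label. All 12 columnar markers that the rule did not use, such as Cdh1, Krt19 and Cdx1, were higher in columnar than in non-epithelial cells of the same library, in each of the 4 libraries. The control for free RNA was the non-epithelial cells, defined by at least 3 UMIs of the 6 non-epithelial genes and more of these than of the columnar genes or of the squamous keratins, with 78 cells in day 1 replicate 1 and 21 in day 3. These held the columnar markers at a median of 32.5% of the columnar level in day 1 replicate 1 and 45.6% in day 3. The day 3 non-epithelial sum had only 80037 UMIs, so that 1 UMI of a gene there is 12.5 CPM. Cells just inside the rule, with 5 or 6 UMIs of the columnar genes, numbered 47 in day 1 replicate 1 and 42 in day 3, and those just outside, with 3 or 4, numbered 29 and 18. The 12 markers summed to 3966 and 5713 CPM inside and to 3775 and 6513 CPM outside.

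In the normal crypt, WNT signals from the base hold stem cells in their state, and the cells switch on brakes on the same pathway, so that these feedback genes report how active it is. Most colon tumors run this pathway without the signal. Above the stem cells lie cycling progenitors, and above those the absorptive colonocytes and the goblet and enteroendocrine cells. Drugs that damage DNA act mainly on cycling cells and switch on p53 target genes, among them the cell cycle brake Cdkn1a.

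Day 3 columnar cells had lower levels of WNT feedback genes and higher levels of G2 and mitosis genes than day 1 columnar cells. Across all genes, 305 were higher past 2-fold in day 3 (4.18% of 7303) and 762 were lower (10.4%), and the median change was -0.16. The split depended on scaling: with edgeR's TMM factors 717 of 7289 genes were higher (9.84%) and 395 lower (5.42%), so that the share of higher genes among all past 2-fold went from 28.6% to 64.5%, and the median change became 0.10. List medians are therefore also given relative to the median of all genes. In the non-epithelial cells 14.7% of the same genes were higher and 18.6% lower past 2-fold. The day 1 libraries, replicate 2 minus replicate 1, differed past 2-fold upward in 1.88% and downward in 2.74% of genes.

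**Figure D1:**
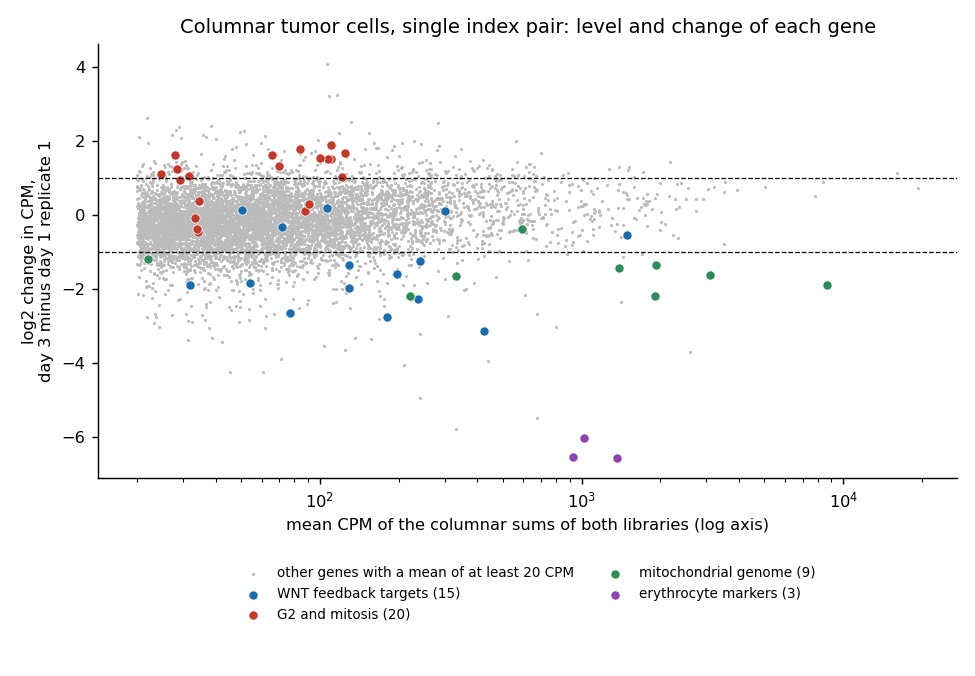
Mean CPM of the columnar sums of day 1 replicate 1 and day 3 (log axis) against the log2 change, day 3 minus day 1 replicate 1, for 7303 genes. Points are genes, colors mark 4 gene lists, and dashed lines mark a change of 1 either way. WNT feedback targets and mitochondrial genes lie mostly below the lower line. Above the upper line lie 13 of 20 G2 and mitosis genes, beside 4.18% of all genes.

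Of 18 WNT feedback targets listed, 15 had a mean of at least 20 CPM. Of these, 10 were lower past 2-fold in day 3 and none was higher, beside 10.4% and 4.18% of all genes. The list's median change was -1.59, which was -1.42 relative to the median of all genes and -1.41 relative to it under TMM scaling. That scaling put 9 of the 15 lower past 2-fold, beside 5.42% of all genes. The members span the pathway from secreted inhibitors to transcription factors.

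Among the secreted inhibitors, Wif1, which binds WNT proteins outside the cell, had 768 CPM in day 1 replicate 1 (interval 740.2 to 797) and 82.4 CPM in day 3 (74.7 to 90.7). It had 429.9 CPM in day 1 replicate 2 and 8.51 CPM in day 6. Both day 1 libraries thus lay above both later ones. Dkk2, a ligand of the WNT co-receptor, had 397 and 499.7 CPM in day 1 replicates 1 and 2, against 78.4 CPM in day 3 and 8.41 in day 6. Notum, an enzyme that removes the lipid WNT proteins need, had 297 CPM in day 1 replicate 1 and 95.6 CPM in day 3. Dkk3, a relative of Dkk2, had 53.3 and 10.8 CPM in the single index pair. For each of these inhibitors the later library of a pair was the lower one.

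Rnf43 and Znrf3, membrane ubiquitin ligases that take WNT receptors off the surface, showed the same order. Rnf43 had 340.1 CPM in day 1 replicate 1 (interval 321.6 to 359) and 142.5 CPM in day 3 (132.3 to 153). Znrf3 had 209.8 CPM and 49.9 CPM. Inside the cell, Axin2, the scaffold of the complex that destroys beta-catenin, had 187 CPM (173 to 202) and 71.2 CPM (64.0 to 78.9), and Nkd1, which binds Dishevelled, had 319 CPM and 43.4 CPM. The intervals of the days did not overlap for any of these genes, but they do not cover the spread between libraries. In the day 1 pair the 4 genes differed by log2 changes from -0.45 to 0.51.

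The transcription factors Lef1 and Sp5, which act with beta-catenin in the nucleus, were lower past 2-fold too. Lef1 had 136 CPM in day 1 replicate 1 and 17.5 CPM in day 3, and Sp5 had 87.3 and 20.7 CPM. Sp5 also differed between the day 1 libraries, with 29.3 CPM in replicate 2. Not all targets were lower past 2-fold. Ccnd2, Ccnd1, Tcf7l2, Bambi and Myc changed by -0.54, -0.32, 0.13, 0.14 and 0.19, and Myc, a driver of growth, had 98.7 CPM in day 1 replicate 1 and 113.5 CPM in day 3.

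The control cells did not have the same order in the sum of the list. Summed over the list, columnar cells had 5105 CPM in day 1 replicate 1 and 2378 CPM in day 3, non-epithelial cells 1252 and 1999 CPM, and squamous cells 1514 and 1495 CPM. The non-epithelial median change over the 15 genes was 0.60 and the squamous one -0.21. Not every member followed the sums: Wif1 changed by -0.71 in non-epithelial and by -0.96 in squamous cells. The day 3 non-epithelial sum held only 80037 UMIs of 21 cells. Its macrophage markers stood at 87.5 CPM, against 5814 CPM in day 1 replicate 1, so that the control itself differed between the days. In day 3 the levels of Dkk2, at 262.4 CPM, and Rnf43, at 187 CPM, were higher in non-epithelial than in columnar cells. Among deep columnar cells, with at least 3000 UMIs, the list summed to 5325 CPM in day 1 replicate 1 and 2356 CPM in day 3, and among shallower ones to 3512 and 2477 CPM. In bulk sums, fewer cells with a gene and less of it per cell cannot be told apart, so shares of cells were computed at an even depth of 1000 UMIs per cell. Wif1 was then expected in 32.6% of columnar cells in day 1 replicate 1 and 7.43% in day 3 (59.6% and 19.7% without thinning), beside 17.0% and 4.31% of non-epithelial cells. Nkd1 was expected in 17.8% and 4.36% (40.4% and 12.2% without thinning), beside 6.32% and 0.491%. For Lef1 the day 3 share of 1.92% lay below the 4.83% of the 21 non-epithelial cells, against 8.36% in day 1 replicate 1. The paper reports Lef1 in T cells of tumors, so that control share may hold the cells' own RNA. Whether the day 3 columnar share of Lef1 is free RNA therefore cannot be told. All 497 and 1042 cells reached that depth.

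**Figure D2:**
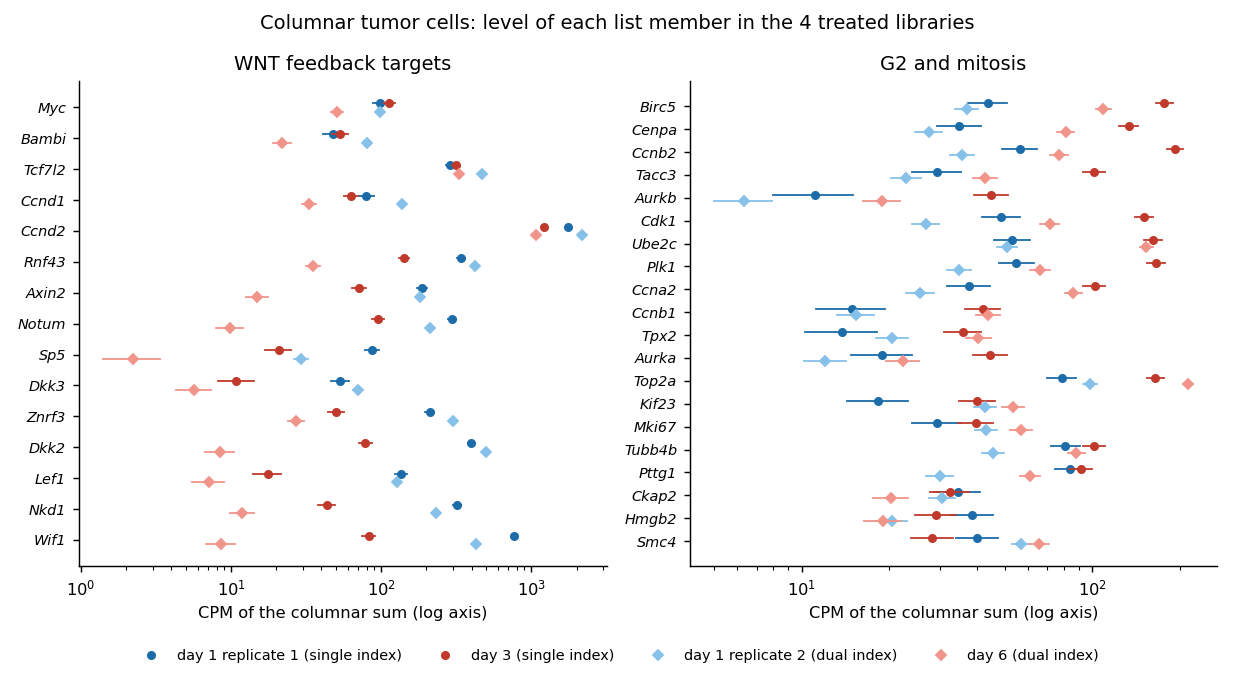
CPM of the columnar sums (log axis) of 15 WNT feedback targets and 20 G2 and mitosis genes, ordered by the single index change. Circles are the single index libraries and diamonds the dual index ones, blue for day 1 and red for day 3 or 6, with exact 95% Poisson intervals as bars. For Wif1 the points run from 768 CPM in day 1 replicate 1 to 82.4 CPM in day 3, and for Birc5 from 43.8 to 177 CPM.

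Lef1 and Sp5 are shown with the bases around a match to the TCF/LEF core, because these factors are the ones through which beta-catenin acts. The letters TCAAAG were searched on both strands in the 250 bases before each gene's start in the RefSeq promoter table of GRCm38.p6. They occurred in 13.8% of 32851 promoters and in 12.5% of 5658 genes of the comparison that could be matched. Of the 15 WNT feedback targets 8 were matched and 2 held the letters, Lef1 and Sp5. Capitals mark the core or its reverse complement, and a match is a description of the letters only.
Lef1, chr3:131156089-131156144, plus strand: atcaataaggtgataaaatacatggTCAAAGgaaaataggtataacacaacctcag
Lef1, chr3:131156149-131156204, plus strand: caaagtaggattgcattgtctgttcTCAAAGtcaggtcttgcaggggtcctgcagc
Sp5, chr2:70474694-70474749, plus strand: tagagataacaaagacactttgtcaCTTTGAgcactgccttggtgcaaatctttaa
Sp5, chr2:70474794-70474849, plus strand: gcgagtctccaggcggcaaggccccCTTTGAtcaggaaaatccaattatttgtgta

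Stem cell markers had no common order. Of 12 with a mean of at least 20 CPM, 4 were lower past 2-fold and none was higher, beside 10.4% and 4.18% of all genes. The median of -0.19 became 0.10 under TMM scaling. The 4 were Lgr5, the R-spondin receptor that marks crypt base stem cells, Smoc2, a secreted protein of the same cells, Hopx and Tnfrsf19. Lgr5 had 325 CPM in day 1 replicate 1 (interval 307 to 344) and 101.1 CPM in day 3 (92.6 to 110.3), and 206 and 16.9 CPM in day 1 replicate 2 and day 6. At 1000 UMIs per cell it was expected in 18.0% and 9.93% of columnar cells of the single index pair (5.86% and 7.24% of non-epithelial cells). Other stem cell genes stood higher in day 3 without passing 2-fold: Ephb2, a receptor of the crypt base, had 206 and 387.5 CPM, and Ascl2, a transcription factor of stem cells, 42.2 and 63.7 CPM. The order of these markers was thus mixed within the single index pair. In the dual index pair 8 of the 12 were lower past 2-fold, beside 15.5% of all genes.

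The genes of G2 and mitosis went the other way. Of 28 listed, 20 had a mean of at least 20 CPM. Of these, 13 were higher past 2-fold in day 3 and none was lower, beside 4.18% and 10.4% of all genes. The median change was 1.18, or 1.35 relative to all genes and 1.32 under TMM scaling. That scaling put 14 of them higher past 2-fold, beside 9.84% of all genes. In the dual index pair 9 of the 20 were higher past 2-fold and none lower, beside 4.14% and 15.5% of all genes, with a median of 0.90. The comparison within each pair thus put most members higher in the later library. Between the day 1 libraries 1 was higher and 1 lower past 2-fold, beside 1.88% and 2.74% of all genes.

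Among regulators, Ccnb2, a cyclin that starts mitosis, had 56.5 CPM in day 1 replicate 1 (interval 49.1 to 64.7) and 192.6 CPM in day 3 (180.7 to 205). It had 35.7 CPM in day 1 replicate 2 and 77.1 CPM in day 6. The day 3 level was 3.41 times that of day 1 replicate 1. Cdk1, the kinase that cyclin B drives, had 48.7 CPM (41.8 to 56.3) and 151 CPM (141 to 162). Plk1, a mitotic kinase, had 54.9 and 166 CPM. Each of these 3 genes was also higher in day 6 than in day 1 replicate 2.

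Birc5, a subunit of the chromosomal passenger complex, had 43.8 CPM in day 1 replicate 1 and 177 CPM in day 3, the highest change of the list at 1.90. Its partner Aurkb, a kinase, had 11.1 and 44.9 CPM. Cenpa, the histone of the centromere, had 34.9 and 133.6 CPM. Ube2c, which serves the ubiquitin ligase of mitotic exit, had a change of 1.52 and 162 CPM in day 3. Top2a, a topoisomerase of G2, was just past 2-fold with 78.7 and 165 CPM. Mki67, the proliferation marker, was not, with 29.2 CPM in day 1 replicate 1 (interval 24.0 to 35.3) and 39.8 CPM in day 3 (34.5 to 45.7). Smc4, Hmgb2 and Ckap2 had changes of -0.45, -0.36 and -0.09.

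Of 26 S phase genes, 15 had a mean of at least 20 CPM. All 15 had changes above 0, 6 were higher past 2-fold, beside 4.18% of all genes, and none was lower. The median was 0.74 (0.90 relative to all genes), beside 0.46 in non-epithelial and 0.32 in squamous cells. The 6 were Tk1, thymidine kinase, with 19.7 CPM in day 1 replicate 1 and 103.9 CPM in day 3, Mcm5 and Mcm3, subunits of the replicative helicase, Lig1, Ung and Rrm1. In the dual index pair only Tk1 was higher past 2-fold, beside 4.14% of all genes, and the median was 0.44.

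The non-epithelial cells gave 1192 CPM of the G2 and mitosis list in day 1 replicate 1 and 1112 CPM in day 3, while columnar cells gave 885 and 2008 CPM. In day 1 replicate 1 the columnar sum therefore lay below that of the control cells. Squamous cells stood at 1969 and 2135 CPM, so that the day 3 columnar level was close to the squamous one. Squamous cells made up 6.68% of cells in day 1 replicate 1 and 15.4% in day 3, and the rule genes Krt5 and Krt14 in columnar cells were at 1.96% and 8.57% of their squamous level. The part of squamous RNA in the mitosis change was not tested. Cdk1 was higher in non-epithelial than in columnar cells of both libraries, at 106.0 and 187.4 CPM. Ccnb2 was expected in 4.15% and 15.9% of columnar cells at 1000 UMIs (15.7% and 41.5% without thinning), beside 2.51% and 10.3% of non-epithelial cells. Columnar cells under 3000 UMIs gave 976 and 2070.2 CPM of the list, and deeper ones 872 and 1995 CPM.

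**Figure D3:**
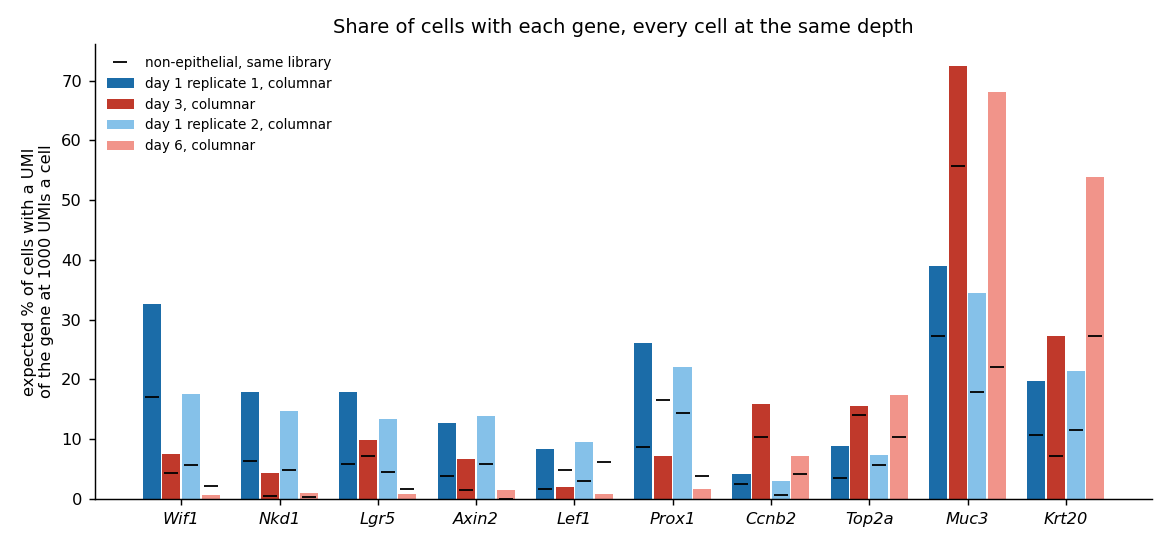
Expected percent of columnar cells with a UMI of each of 10 genes when every cell is thinned to 1000 UMIs (bars, by library), with the same share of non-epithelial cells as black lines. Wif1 goes from 32.6% in day 1 replicate 1 to 7.43% in day 3, and Ccnb2 from 4.15% to 15.9%. In day 3 the lines of Lef1 and Prox1 lie above the bars.

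Promoters of the mitosis list were searched for the cell cycle genes homology region (CHR), the letters TTTGAA, through which the DREAM complex holds mitosis genes down outside G2. In the same 250 bases and on both strands, TTTGAA occurred in 16.0% of promoters and in 12.5% of the matched genes of the comparison. Of 16 matched members of the list 8 held it: Ccnb2, Cdk1, Ckap2, Hmgb2, Mki67, Top2a, Tubb4b and Ube2c. Among these holders, Ckap2 and Hmgb2 had changes below 0 in the single index pair, and Mki67 did not pass 2-fold. A match is a description of the letters only. The letters overlap with the reverse of the TCF/LEF core, so that CTTTGAA holds both. Ccnb2, Cdk1 and Ube2c, past 2-fold in both pairs, are shown in the direction of the gene with the match in capitals.
Ccnb2, chr9:70421691-70421746, minus strand: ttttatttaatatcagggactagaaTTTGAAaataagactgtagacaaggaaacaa
Cdk1, chr10:69352953-69353008, minus strand: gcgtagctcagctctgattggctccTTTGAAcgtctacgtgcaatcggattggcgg
Cdk1, chr10:69352913-69352952, minus strand: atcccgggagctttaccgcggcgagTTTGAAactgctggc
Ube2c, chr2:164769875-164769928, plus strand: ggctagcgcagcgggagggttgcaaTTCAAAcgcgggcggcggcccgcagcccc

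Of 21 p53 target genes with a mean of at least 20 CPM, 5 were lower past 2-fold in day 3, beside 10.4% of all genes, none was higher, and 19 had changes below 0. The median was -0.78 (-0.62 relative to all genes). Trp53inp1, which promotes cell death and autophagy, had 119.5 CPM in day 1 replicate 1 (interval 109 to 131) and 14.6 CPM in day 3 (11.5 to 18.3). The other 4 were Eda2r, a death receptor, Ccng1, Ddit4l and Mdm2, the ligase that degrades p53, which had 97.9 and 46.3 CPM. With TMM factors 3 of the 21 were lower past 2-fold, beside 5.42% of all genes, and none was higher. Cdkn1a was level, with 1097 CPM (1063 to 1131) and 1081 CPM (1052 to 1109.5), a change of -0.02. In the dual index pair 13 of the 21 were lower past 2-fold, beside 15.5% of all genes, and Cdkn1a had 889 and 462 CPM. Cdkn1a is thus a point where the pairs differ.

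Of 12 genes that handle 5FU and Irinotecan, 2 were higher and 2 lower past 2-fold, beside 4.18% and 10.4% of all genes. The lower ones were Top1, the target of Irinotecan, with 228.5 CPM in day 1 replicate 1 and a change of -1.22, and the drug exporter Abcc2, with 62.2 and 13.8 CPM. The higher ones were Tk1 and Ung, which removes uracil from DNA, with 15.7 and 44.9 CPM. Tyms, the target of 5FU, had a change of 0.40 and did not pass 2-fold. The TMM scaling left 1 of the 12 lower and 4 higher past 2-fold, beside 5.42% and 9.84% of all genes.

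Secretory genes were mostly lower in day 3, but the day 1 libraries themselves lay apart in them. Of 16 goblet genes 7 were lower and 1 higher past 2-fold, beside 10.4% and 4.18% of all genes, with a median of -0.79. Their median was -0.85 in non-epithelial cells and -0.35 in squamous cells. Zg16, a secreted lectin, had 1428 CPM in day 1 replicate 1 and 170.7 CPM in day 3, but 247 CPM in day 1 replicate 2 and 878 CPM in day 6. Muc2, the main mucin of the colon, had 4433 and 2590.0 CPM in the single index pair and 1493 and 1473 CPM in the dual index pair. Its day 3 level thus lay between the day 1 libraries. Creb3l1 was the goblet gene higher past 2-fold, with 132 and 323 CPM. Between the day 1 libraries 7 of the 16 were lower past 2-fold in replicate 2, beside 2.74% of all genes. With replicate 2 as day 1 the list's median became 0.26.

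Of 5 enteroendocrine genes, Chgb, Insl5 and Tph1 were lower past 2-fold in day 3, beside 10.4% of all genes. Chgb, a granin of secretory granules, had 281 CPM in day 1 replicate 1 and 57.6 CPM in day 3, but 117.5 CPM in day 1 replicate 2 and 401 CPM in day 6. The order of the pairs was opposite. The list's median of -1.74 became -0.65 with replicate 2 as day 1, -0.45 with a minimum mean of 50 CPM and -0.39 without a minimum. Of 6 Paneth-like genes, Defa24 and Defa17 were lower past 2-fold, beside 10.4% of all genes, and Lyz1, lysozyme, had 1174 and 669 CPM. Defa genes are near-identical copies, and the counting may have split reads between them.

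Most absorptive colonocyte genes had changes above 0, but few passed 2-fold. Of 23, 17 had changes above 0. Past 2-fold, 3 were higher and 1 was lower, beside 4.18% and 10.4% of all genes. The median was 0.32 (0.49 relative to all genes). The same genes had higher medians in the other classes, 0.61 in non-epithelial and 0.62 in squamous cells. Muc3, a membrane mucin of the brush border, had 895 CPM in day 1 replicate 1 (interval 865 to 926) and 2112 CPM in day 3 (2073 to 2153). Myo1a, a myosin of microvilli, had 187 and 418 CPM, and Mall had 67.9 and 203 CPM. Slc26a3, the chloride exchanger, was the lower one, with a change of -1.53. In the dual index pair 15 of the 23 were higher past 2-fold and none was lower, beside 4.14% and 15.5% of all genes. Lypd8, a surface protein that keeps bacteria off, went from 3005 to 17101 CPM there, against 2770 and 4252 CPM in the single index pair.

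**Figure D4:**
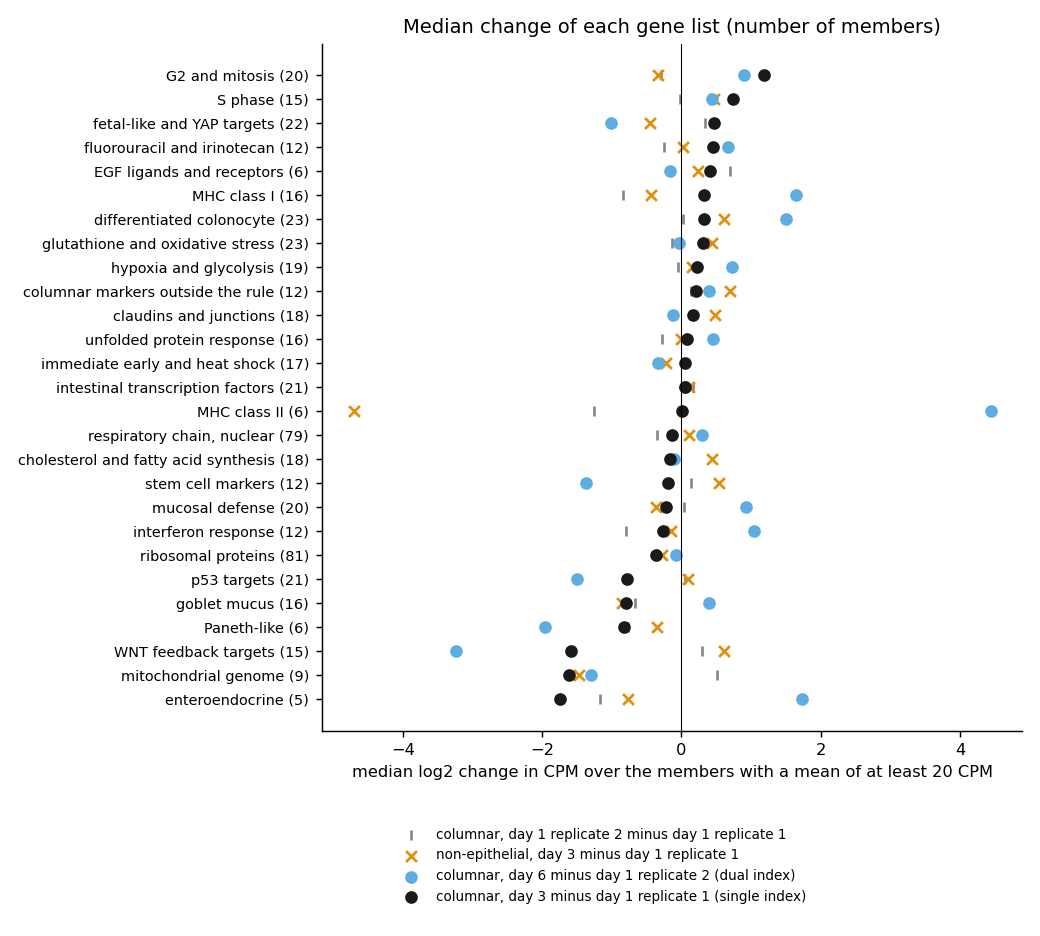
Median log2 change of 27 gene lists with at least 5 members of 20 CPM or more, with the number of members in brackets. Black points are day 3 minus day 1 replicate 1 in columnar cells, blue points day 6 minus day 1 replicate 2, orange crosses the single index change in non-epithelial cells, and grey bars the difference of the day 1 libraries. WNT feedback targets stand at -1.59 and -3.23 in both pairs against 0.60 in non-epithelial cells, and the mitochondrial genes at -1.62 against -1.47.

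Immune and defense genes of the epithelium had no common order in the single index pair. Of 20 mucosal defense genes 5 were higher and 1 lower past 2-fold, beside 4.18% and 10.4% of all genes, with a median of -0.22. The higher ones were Ltf (lactoferrin), Duox2 and its partner Duoxa2, which make hydrogen peroxide, Dmbt1 and Wfdc2. Cxcl1, a neutrophil attractant, was the lower one. With TMM factors 7 of the 20 were higher and none lower past 2-fold, beside 9.84% and 5.42% of all genes. Dmbt1, a scavenger protein of mucus, had 749.8 CPM in day 1 replicate 1 and 1802 CPM in day 3. Of 16 MHC class I genes only H2-D1 was past 2-fold (6.25%, beside 4.18% of all genes), with 543 and 1157 CPM. With TMM factors 4 of the 16 were higher past 2-fold and none lower, beside 9.84% and 5.42% of all genes. In the dual index pair 10 of 16 were higher past 2-fold, beside 4.14% of all genes. The antigen chain partner B2m had 393 and 343 CPM in the single index pair and 142 and 2559 CPM in the dual one. None of 6 MHC class II genes was past 2-fold in the single index pair. Under TMM scaling 1 was higher, beside 9.84% of all genes. In the dual index pair all 6 were higher past 2-fold, beside 4.14% of all genes. Of 12 interferon genes, Isg20 was higher and Ifitm3 lower past 2-fold, beside 4.18% and 10.4% of all genes. With TMM factors 1 of the 12 was higher and none lower, beside 9.84% and 5.42% of all genes.

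Of 22 genes of fetal-like epithelium and YAP, 2 were higher past 2-fold (Ly6c1 and Plaur) and none was lower, beside 4.18% and 10.4% of all genes. Under TMM scaling 8 were higher, beside 9.84% of all genes. Ly6a, the marker of regenerating epithelium, had 1034.5 and 1360.0 CPM, and Clu 181 and 233 CPM. The list's median of 0.47 stood beside -1.01 in the dual index pair and became -0.05 with day 1 replicate 2 in place of replicate 1. In the dual index pair 12 of the 22 were lower past 2-fold, beside 15.5% of all genes. Among 23 glutathione genes 1 was higher and 1 lower past 2-fold, beside 4.18% and 10.4% of all genes. Gpx2, a glutathione peroxidase of the gut epithelium, was higher with 1171 and 3185 CPM, and Prdx1 was lower with 1192 and 574 CPM. Under TMM scaling 7 of the 23 were higher and none lower past 2-fold, beside 9.84% and 5.42% of all genes.

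Among 21 intestinal transcription factors 2 were higher and 1 lower past 2-fold, beside 4.18% and 10.4% of all genes. The higher ones were Hoxb13, which marks the distal colon, with 355 and 745 CPM, and Elf3, an epithelial factor, with 363 and 778 CPM. Id2 was lower with 71.1 and 25.8 CPM. The identity factors Hnf4a (165 and 173 CPM) and Cdx2 (43.8 and 59.3 CPM) did not pass 2-fold. Among 18 junction genes, Cldn2 and Pkp3 were higher and Tjp1 lower past 2-fold, beside 4.18% and 10.4% of all genes. With TMM factors 4 of the 18 were higher and none lower, beside 9.84% and 5.42% of all genes. Tjp1 had 105 CPM in day 1 replicate 1 and 43.6 CPM in day 3, but 2648 CPM in day 1 replicate 2 and 618 CPM in day 6.

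No member of the lists for hypoxia and glycolysis (19 genes), cholesterol and fatty acid synthesis (18) or EGF ligands and receptors (6) was past 2-fold, while under TMM scaling 3, 2 and 2 members were higher, beside 9.84% of all genes. Their medians were 0.23, -0.16 and 0.40, and the second was 0.13 under TMM scaling. Of 16 genes of the unfolded protein response, Ppp1r15a was higher. Of 17 immediate early and heat shock genes, Hspa1b, Dnajb1 and Klf6 were higher and Hsp90aa1 was lower. Across all genes 4.18% were higher and 10.4% lower past 2-fold. With TMM factors 3 of the 17 were higher and none lower, beside 9.84% and 5.42% of all genes. The medians of these lists of stress genes were 0.08 and 0.05.

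Some changes were shared by every class of cells. Of 9 transcripts of the mitochondrial genome 8 were lower past 2-fold in day 3, beside 10.4% of all genes. Their median was -1.62 in columnar, -1.47 in non-epithelial and -1.49 in squamous cells. Their sum was 27848 CPM in day 1 replicate 1 and 8482 CPM in day 3, and the median share of mitochondrial counts per columnar cell was 2.48% and 0.827%, far below the limit of 15% set for cells. Rpl39, a protein of the large ribosomal subunit named here after its values were seen, had 828 and 49.3 CPM in columnar cells, 742 and 62.5 CPM in non-epithelial cells and 1389 and 68.5 CPM in squamous cells. In the dual index pair it had 457.7 and 44.0 CPM. Of 81 ribosomal proteins, Rpl39 included, 5 were lower past 2-fold, a smaller share than the 10.4% of all genes, and their median was -0.37, or -0.08 under TMM scaling.

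RNA of other cell types differed between the libraries as well. Red cell genes were the lowest of all: Hba-a2, an alpha globin, had 2706 CPM in day 1 replicate 1 and 23.5 CPM in day 3, and 4861 and 280.0 CPM in day 1 replicate 2 and day 6. Of its day 1 replicate 1 counts 62.8% lay in 5 cells. In squamous cells of the same libraries the order was opposite, with 348 CPM of Hba-a2 in day 1 replicate 1 and 1697 CPM in day 3, and a median change of 2.79 over the 3 erythrocyte markers. Hba-a1 and Hba-a2 are near-identical copies, as are Hbb-bs and Hbb-bt. Igha, an antibody heavy chain, had 1331 and 24.8 CPM, with 87.7% of the day 1 replicate 1 counts in 5 cells, and 1584 and 6242 CPM in the dual index pair. All 3 erythrocyte markers and both plasma cell markers that reached 20 CPM were lower in day 3.

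Squamous genes were higher in day 3 columnar cells. Of 4 with a mean of at least 20 CPM, Krt13, Krt17 and Krt15 were higher past 2-fold, beside 4.18% of all genes. Krt13 had 329.6 and 1071 CPM. The 9 squamous markers summed to 979 and 2264 CPM in columnar cells and to 18522 and 14986 CPM in squamous cells. The 3 genes with the highest changes of all, named after their values were seen, were Cyp2f2, an oxidase, Cbr2, a carbonyl reductase, and Ltf. Cyp2f2 had 7.30 CPM in day 1 replicate 1 and 206 CPM in day 3 columnar cells, beside 2.87 and 137.4 CPM in non-epithelial cells and 229 and 1171 CPM in squamous cells. The part of free squamous RNA in these changes was not tested. Markers of other classes were low in columnar cells: macrophage markers summed to 181 and 107 CPM, neutrophil markers to 75.7 and 170.3 CPM, fibroblast markers to 182 and 53.6 CPM, and no T cell or endothelial marker reached a mean of 20 CPM. Macrophage markers summed to 5814 CPM in the non-epithelial cells of day 1 replicate 1 and to 87.5 CPM in those of day 3, so that the control cells of the days differ in kind.

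A set of 30 genes was named by size of change among those at least 2 times the non-epithelial level and at least the squamous level in the library where they were higher. Such genes numbered 54 of the 305 higher and 235 of the 762 lower. The higher genes were held to the 21 non-epithelial cells of day 3 and the lower ones to the 78 of day 1 replicate 1. Both counts therefore cannot be set against each other, and the share of all genes past these limits was not computed. Of the 15 named higher genes, those reported here were Krt90, B3gnt3, Defb45, Tnfsf13os, Fam83e, Lpo, Plek2, Ccnb2, Slc45a3, Ggt6, Gjb1, Gprc5a, Ap1m2 and Iqgap3, with changes from 2.64 down to 1.47. B3gnt3, which extends O-glycans of mucins, had 14.1 and 88.3 CPM, with 10.7 and 68.5 CPM in the dual index pair. Gjb1, a connexin of gap junctions, had 61.6 CPM in day 1 replicate 1 and 193.6 CPM in day 3, but 29.5 and 34.2 CPM in the dual index pair. Krt90 rested on 9 UMIs in 5 cells of day 1 replicate 1 and 210 UMIs in 89 cells of day 3.

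The 15 named lower genes were Hba-a2, Hbb-bs, Hba-a1, Jchain, Igha, Cadps, Hbb-bt, Mdga2, Clca1, Slc16a10, Slc30a2, Dach1, Mt4, Wif1 and Gdf11, with changes from -6.57 to -3.06. Red cell and plasma cell genes take 6 of these places. Cadps, a factor of vesicle release, had 473 CPM in day 1 replicate 1 and 10.6 CPM in day 3, and 309 and 6.89 CPM in the dual index pair. Dach1, a nuclear cofactor, had 253 and 20.7 CPM, and Slc30a2, a zinc transporter, 290.7 and 24.0 CPM. Mt4, a metallothionein, had 438 and 42.6 CPM. These 4 genes were lower past 2-fold in both pairs and lay within log2 changes of -0.61 to 0.24 between the day 1 libraries. In the non-epithelial cells Cadps, Slc30a2 and Dach1 were lower past 2-fold as well, with changes of -1.73, -1.41 and -1.18, and Mt4 had -0.96. Of the 15 named lower genes 11 were lower past 2-fold in those cells (73.3%), beside 18.6% of all genes, and 10 of the 15 higher ones were higher there (66.7%), beside 14.7%. The day 3 counts behind these shares were very small. Cadps, Slc30a2 and Dach1 rested on 2 UMIs each in day 3, and Krt90 on 1 UMI against 0 in day 1 replicate 1. How far these changes were shared therefore cannot be told from the control cells.

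Prox1 and Spock2, named after their values were seen, had the same order as the WNT targets. Prox1, a transcription factor found in WNT-active intestinal tumors, had 542 CPM in day 1 replicate 1 (interval 518 to 566) and 77.3 CPM in day 3 (69.8 to 85.3), and 428 and 21.2 CPM in the dual index pair. Its counts were spread over 266 of 497 cells in day 1 replicate 1 and 207 of 1042 cells in day 3. Spock2, a matrix proteoglycan, had 1174 and 178 CPM in the single index pair and 746 and 35.1 CPM in the dual one. In non-epithelial cells Prox1 stood at 80.2 and 212.4 CPM, against the columnar order, and Spock2 at 246 and 37.5 CPM, with it.

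The dual index pair shared the direction of most changes. Of the 762 genes lower in day 3, 720 had the same sign (94.5%, beside 67.3% of all genes) and 417 were lower past 2-fold in day 6 (54.7%, beside 15.5% of all genes), and 8 were higher past 2-fold. Of the 305 higher genes, 244 had the same sign (80.0%, beside 32.7% of all genes) and 84 were higher past 2-fold in day 6 (27.5%, beside 4.14% of all genes), and 8 were lower past 2-fold. In the non-epithelial cells of the single index pair, 281 of the 762 lower genes (36.9%) and 157 of the 305 higher genes (51.5%) were past 2-fold in the same direction, beside 18.6% and 14.7% of all genes. The day 3 non-epithelial sum of only 80037 UMIs limits these shares. A shared direction between the pairs covers day 3 and day 6, not repeats of the same day.

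**Figure D5:**
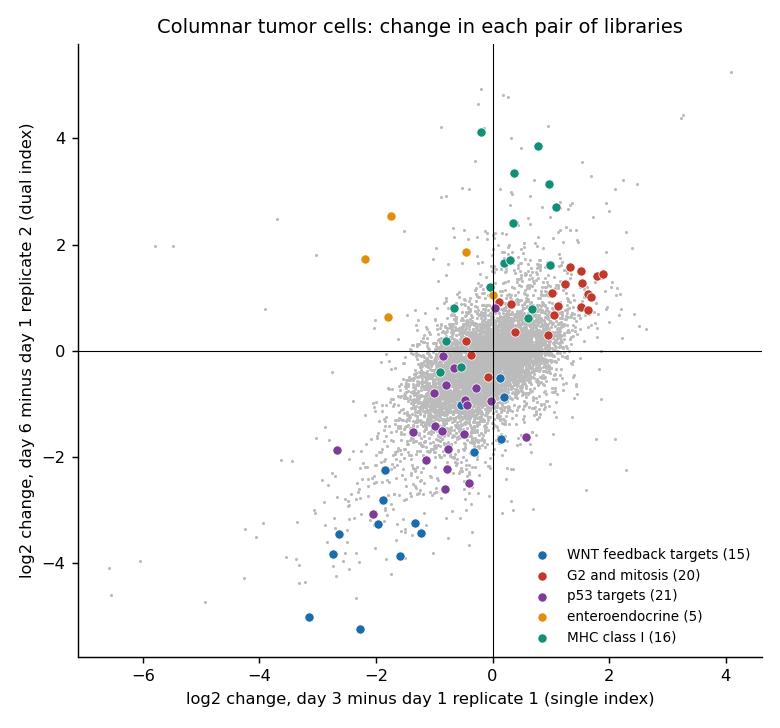
Log2 change in columnar cells, day 3 minus day 1 replicate 1 (x axis) against day 6 minus day 1 replicate 2 (y axis), for 7303 genes, with 5 gene lists in color. WNT feedback targets lie mostly at the lower left, with 3 of the 15 above 0 on the x axis, and G2 and mitosis genes mostly at the upper right. The 5 enteroendocrine genes lie above 0 on the y axis, and 4 of them lie below 0 on the x axis.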

How the data were processed

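The libraries were deposited as raw UMI counts per barcode and gene, 1 table per library, which the authors made with dropEst against GRCm38. No values were normalized. Barcodes with at least 500 genes and at most 15% mitochondrial counts were kept, and no doublets were removed. Of the kept barcodes, 7 occurred in both libraries of the single index pair, 6 of them columnar. The stromal library of normal colon was not used here. Totals per treated library ran from 5132360 to 16904947 UMIs.

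Counts were summed over the cells of a class and library in Python 3.11.15 with numpy 2.4.6 and pandas 2.3.3, scaled to CPM and compared as log2 differences with 5 CPM added. Squamous cells had at least 5 UMIs of Krt5 and Krt14, no fewer than of the columnar genes, and under 3 of the non-epithelial genes. Poisson intervals and expected shares at 1000 UMIs used scipy 1.17.1, and TMM factors came from edgeR 4.0.16 in R 4.3.3. Figures used matplotlib 3.10.9. The change calculation was tested on simulated data with known folds. The rule for cells, the 35 gene lists and the comparison were chosen with earlier results of these data known, so that no list supports a direction on its own. Named genes were the 15 with the highest and the 15 with the lowest change past 2-fold that were also above control cells, leaving out rule genes, mitochondrial genes and predicted genes. 1 of them is not reported here. With 1 library a side no test was made, and 11 alternatives were computed.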

Additional observations from a re-analysis of the deposited data

Results flagged for a closer look

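The plasma cell genes and the enteroendocrine genes moved in opposite directions in the single and the dual index pair, and the difference between the pairs was not tested. Jchain had a change of 1.98 and Igha of 1.97 in day 6 minus day 1 replicate 2, against -5.79 and -5.48 in day 3 minus day 1 replicate 1. The median of the B and plasma cell markers was 2.23 in the dual index pair and -4.75 in the single index pair. The median of the enteroendocrine list was 1.73 and -1.74, and the latter was -0.65 with day 1 replicate 2 in place of replicate 1.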

How the results depend on the processing

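The 30 named genes kept their direction and stayed past 2-fold under all 9 alternatives run for them. They were picked for the size of their change in the same counts, so this outcome was likely from the start and is no support for them. Genes higher past 2-fold numbered 717 with TMM and 785 with median-of-ratios scaling, against 305, and genes lower past 2-fold 395 and 366, against 762, because both scalings raise every change by a near constant. The lower genes numbered 364 with a minimum mean of 50 CPM, 1204 without a minimum and 492 when every cell weighed the same. The WNT feedback median of -1.59 became -1.30 with TMM, -1.26 with median-of-ratios scaling, -1.28 without a minimum, -1.14 when every cell weighed the same and -1.32 without the 6% of cells with the most UMIs. The G2 and mitosis median of 1.18 became 1.52 with a minimum of 50 CPM and 0.79 when every cell weighed the same. It became 1.33 with TMM and 1.37 with median-of-ratios scaling, where the minimum of 20 CPM was applied anew after scaling. Over the 20 members given above, these 2 scalings gave 1.42 and 1.45. With day 1 replicate 2 in place of replicate 1, across library structures, 671 genes were higher and 1442 lower, the WNT feedback median was -1.30, the G2 and mitosis median 1.47, the fibroblast marker median 0.26 in place of -1.46 and the goblet median 0.26 in place of -0.79. In that setting the medians of fetal-like and YAP (-0.05 in place of 0.47), EGF (-0.60, 0.40) and transcription factor genes (-0.33, 0.05) were below 0, and those of interferon (0.38, -0.26), mucosal defense (0.15, -0.22), cholesterol (0.16, -0.16) and nuclear respiratory chain genes (0.07, -0.14) were above 0. The MHC class I median was 1.25 in place of 0.33, MHC class II 1.23 in place of 0.01, stem cell -0.58 in place of -0.19, Paneth-like -0.12 in place of -0.82, enteroendocrine -0.65 in place of -1.74, and drug genes 1.01 in place of 0.45. The medians of stem cell, mucosal defense, interferon, cholesterol and nuclear respiratory chain genes were below 0 as given and above 0 with both other scalings. No paired analysis was possible because the compared groups have 1 library each. The 21 non-epithelial cells of day 3 limit the control values.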
